A study of Mus musculus with 32 samples.

Results

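Apolipoproteins and the genes that move cholesterol out of cells were followed in the spinal cord of mice that carry the SOD1-G93A transgene, a model of amyotrophic lateral sclerosis, and of WT mice. The group held 10 genes named in a list, namely Apoe, Apoc1, Apod, Clu, Abca1, Abcg1, Nr1h3, Ch25h, Soat1 and Plin2, and each was found once among the 42524 genes of the count table. RNA of spinal cord tissue was sequenced from 32 mice, 4 in each of the 8 combinations of WT or G93A, no treatment or OKN-007 (OKN007 in the labels), and 90 or 155 days. G93A mice carry human SOD1 with the G93A mutation on the C57BL/6J background, WT mice were their littermates, and OKN-007, a nitrone compound, was given in drinking water; the table, which lists mouse genes, holds no entry for the human transgene, and the dose of the sequenced mice is not named in the text of the study. The labels give the earlier time as 90 days and the study's methods give 95 days, and the labels are followed here.

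Neurons and glia of the adult cord depend on cholesterol that glia package into lipoprotein particles. Apolipoprotein E, made mainly by astrocytes and, when they are activated, by microglia, forms the shell of these particles, and the transporters ABCA1 and ABCG1 load them with cholesterol and phospholipid. A cell that takes up much cholesterol, such as a phagocyte that clears myelin, makes oxysterols, which bind the nuclear receptors LXRα (the product of Nr1h3) and LXRβ, and these receptors switch on efflux genes, while cholesterol kept in the cell is esterified by SOAT1 and stored in droplets coated by perilipin 2 (the product of Plin2).

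Of the 10 genes, 7 had an entry in a RefSeq table of promoters (build GRCm38.p6), Apoc1, Clu and Abcg1 having none. The 250 bases before each start were searched on both strands for AGGTCA (the core element of nuclear receptors), TCACNCCAC (a sterol regulatory element), GAGGAAGT (a PU.1 site) and CACGTG (an E-box), none of which contains another. Shown are the promoter of Apoe, the most abundant of the genes, and those of Abca1 and Plin2, the ones with a match, which is in capitals.
Apoe, chr7:19699189-19699438, minus strand: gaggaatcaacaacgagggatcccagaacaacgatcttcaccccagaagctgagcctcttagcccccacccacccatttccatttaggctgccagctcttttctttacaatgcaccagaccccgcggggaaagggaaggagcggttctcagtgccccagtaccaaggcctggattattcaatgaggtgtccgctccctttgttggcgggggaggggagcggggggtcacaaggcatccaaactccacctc
Abca1, chr4:53159896-53160145, minus strand: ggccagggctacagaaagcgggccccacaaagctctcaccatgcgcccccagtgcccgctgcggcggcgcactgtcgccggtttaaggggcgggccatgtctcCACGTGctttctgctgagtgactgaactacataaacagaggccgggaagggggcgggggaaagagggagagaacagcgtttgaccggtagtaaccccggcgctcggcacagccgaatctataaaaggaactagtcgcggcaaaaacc
Plin2, chr4:86670060-86670309, minus strand: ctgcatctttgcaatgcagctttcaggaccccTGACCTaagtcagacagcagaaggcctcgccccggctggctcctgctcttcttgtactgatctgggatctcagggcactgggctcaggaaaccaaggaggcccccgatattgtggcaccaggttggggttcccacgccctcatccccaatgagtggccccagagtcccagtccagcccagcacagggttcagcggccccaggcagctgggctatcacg
The capitals mark the E-box of Abca1, which begins 147 bases before the start (position -147), and the core element of Plin2 at -218, which reads as its reverse complement TGACCT on the strand shown. E-boxes were present in 6.02% and core elements in 14.02% of the 32851 promoters of the table, sterol regulatory elements in 1.05% and PU.1 sites in 2.44%. No match was found in the windows of Apod, Ch25h and Soat1, in the 3 windows of Apoe or in the 2 of Nr1h3. A match is a string of letters and says nothing on binding in these mice. Only exact strings in these windows were searched, so a site that differs by a base, or lies elsewhere, is not marked. The lack of a match therefore does not show that a gene, Abca1 included, lacks a nuclear receptor element.

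Gene counts summed to between 19701722 and 30138257 in a mouse. Levels are given as CPM (counts scaled to the same library size after edgeR's TMM adjustment), and in the shallowest mouse 3 counts, taken as the limit of detection, came to 0.152 CPM. Such limits and the counting intervals below allow for counting error alone. The 10 genes together took from 0.390% to 3.04% of the counts of a mouse. Groups were compared within each time by edgeR's quasi-likelihood test (two-sided, 16 mice in one fit), with Benjamini-Hochberg adjustment over all genes tested, and a gene was called at an adjusted p under 0.05.

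Some features of whole libraries go with the groups and bear on the values that follow. Summed levels of 10 microglia markers lay between 334 and 410 CPM in untreated WT and between 1434 and 2551 CPM in untreated G93A mice of 155 days, and those of 8 astrocyte markers between 4658 and 5173 and between 13747 and 17274 CPM. Called higher in untreated G93A mice at 155 days were all 10 microglia markers, 7 of the 8 astrocyte markers and 1 of 6 oligodendrocyte markers. All 5 neuron markers and 5 of 6 motor neuron markers were called lower. Over all genes 21.3% were called higher and 18.2% lower, so 1 of 6 is near the share of all genes. In whole tissue, more cells of a type and more RNA per cell cannot be told apart, and the part of these shifts in the results was not tested. A score of caudal Hox genes (mean log2 of CPM + 1), which mark the level of the cord, ranged from 1.81 to 3.07 in untreated WT and from 0.353 to 1.85 in untreated G93A mice of 155 days, and in treated mice from 2.60 to 2.95 and from 0.773 to 2.18. With this score in the fit, 9 and 10 of the 10 genes were called in the 2 comparisons of genotypes at 155 days. The share of all genes called in that fit is not given here. The score hardly overlapped between untreated genotypes and did not overlap between treated ones. Such a fit can therefore hardly tell cord level and genotype apart. Summed liver markers, Alb among them, reached 190 CPM in 1 untreated (replicate 12) and 133 CPM in 1 treated G93A mouse (replicate 15) of 155 days, and Schwann cell markers 1321 CPM in 1 untreated WT mouse (replicate 3) and 286 CPM in 1 untreated G93A mouse (replicate 10) of 90 days. At 90 days the highest liver sums were 76.8 CPM in treated WT replicate 6 and 41.6 CPM in untreated G93A replicate 11.

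All 10 genes were higher in untreated G93A than in untreated WT mice at 155 days. Over all 18675 genes tested, 21.3% were called higher and 18.2% lower in this comparison. The median log2 fold change of the 10 genes was 1.81, against 0.000155 over all genes, and single genes ranged from 0.31 for Abcg1 to 5.81 for Ch25h. In treated mice all 10 were again higher in G93A than in WT, with a median log2 fold change of 2.01 and a background of 23.3% of genes called higher; these are other mice. The lowest G93A mouse lay above the highest WT mouse for 9 of the genes in untreated mice (17.4% of all genes) and for 10 in treated mice (22.6% of all genes). The calls held when the 2 G93A mice of 155 days with liver RNA (untreated replicate 12, treated replicate 15) were left out, with 10 genes called in both comparisons.

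**Figure D1:**
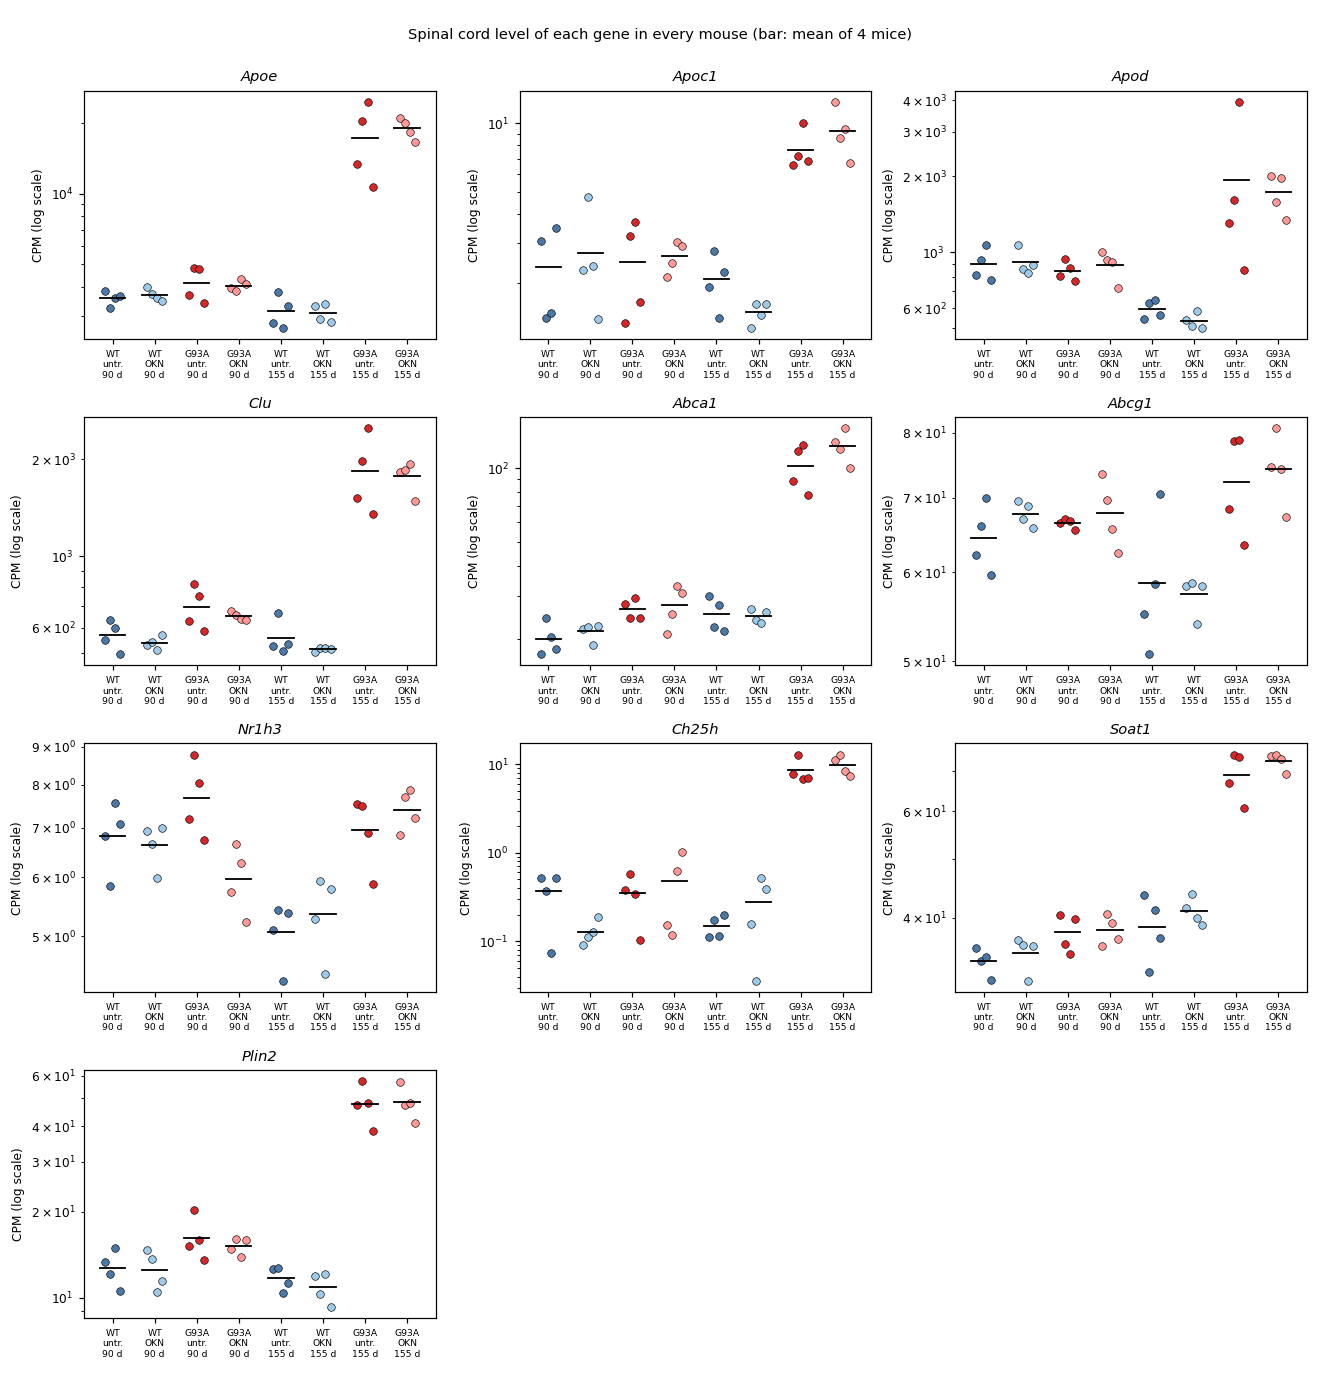
Level of each of the 10 genes in every mouse (CPM, log scale), by genotype, treatment and time; points are mice and bars the mean of 4 mice. In the G93A mice of 155 days the points of Apoe lie between 10723 and 24672 CPM, and those of all other groups between 2675 and 4798 CPM, while the points of Abcg1 and Nr1h3 stay close together in all groups.

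Apoe (chr7:19696109-19699188 on GRCm38, minus strand) encodes the main apolipoprotein of the central nervous system. Its level at 155 days was 2813, 3813, 2675 and 3320 CPM in the 4 untreated WT mice. It was 13358, 20443, 24672 and 10723 CPM in the 4 untreated G93A mice. Even the lowest G93A mouse was more than 2-fold above the highest WT mouse. The log2 fold change was 2.47 (SE 0.19, adjusted p 9.57e-09 by edgeR's quasi-likelihood test), a 5.53-fold difference with a 95% interval from 4.17 to 7.34. The treated G93A mice had 21095, 20007, 18379 and 16589 CPM and the treated WT mice 3298, 2904, 3383 and 2842 CPM, a log2 fold change of 2.65 (SE 0.20). The treated G93A mice lay within the range of the untreated ones and closer together.

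Apoc1 (chr7:19689481-19692660, minus strand), the next gene to Apoe, encodes a small apolipoprotein that is exchanged between lipoprotein particles. It was a low transcript, at 1.94, 2.78, 1.41 and 2.23 CPM in untreated WT and 6.56, 7.15, 10.05 and 6.81 CPM in untreated G93A mice of 155 days. With OKN-007 it was at 1.28, 1.62, 1.46 and 1.62 CPM in WT and 12.4, 8.57, 9.42 and 6.72 CPM in G93A mice. The genotypes did not overlap under either treatment. The fitted log2 fold change was 1.89 (SE 0.21, adjusted p 1.01e-06, edgeR) without treatment and 2.67 (SE 0.22, adjusted p 1.30e-08, edgeR) with it.

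The genes around Apoe on chromosome 7 did not move as a block. Apoc4 (chr7:19678083-19681479), another apolipoprotein gene of the cluster, was counted 13 times over the 4 untreated WT mice and 154 times over the 4 untreated G93A mice, with a log2 fold change of 3.55 (SE 0.52), and its counts are uncertain because the annotated model Gm44805 overlaps it. Apoc2 had 0 counts over the untreated WT and 7 over the untreated G93A mice and was not tested. Gm44805 overlaps Apoc2 too, so its counts are uncertain in the same way. Tomm40, which encodes a channel of the mitochondrial outer membrane and lies next to Apoe on the side away from Apoc1, had a log2 fold change of -0.16 (SE 0.095, adjusted p 0.184, edgeR), and Clptm1 at the other end had one of -0.033 (SE 0.087). Nectin2, an adhesion gene next to Tomm40, was higher by 0.73 on the log2 scale (SE 0.11, adjusted p 5.74e-05, edgeR).

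**Figure D2:**
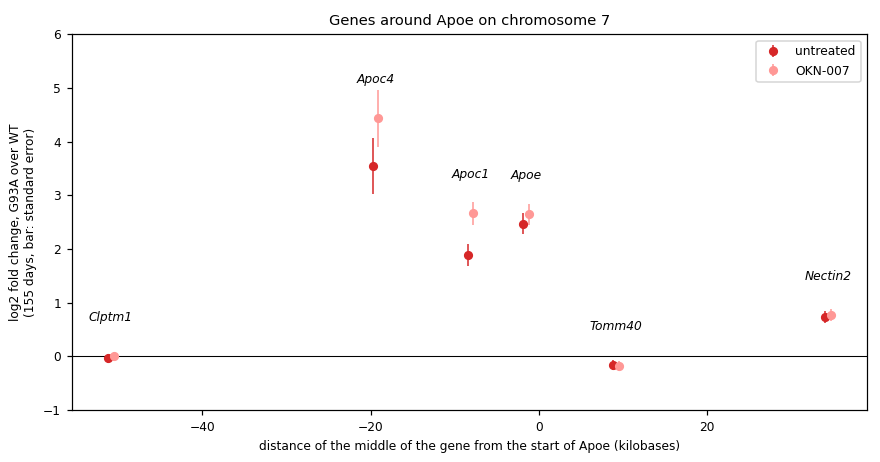
Log2 fold change of the tested genes around Apoe, G93A over WT at 155 days (points, bars are standard errors), against the distance of the middle of the gene from the start of Apoe in kilobases, for untreated and treated mice. Apoc4, Apoc1 and Apoe stand at 1.89 or above, while Clptm1 and Tomm40 lie between -0.17 and 0.0016.

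Clu (chr14:65968483-65981547) encodes clusterin, also called apolipoprotein J, a secreted chaperone made by astrocytes. Untreated WT mice of 155 days had 527, 665, 508 and 534 CPM. Untreated G93A mice had 1512, 1974, 2498 and 1352 CPM, all above every WT mouse. In the fit, the log2 fold change came to 1.73 (SE 0.15, adjusted p 2.59e-08, edgeR), and in treated mice 1.82 (SE 0.15), with 1486 to 1929 CPM in G93A and 504 to 518 CPM in WT mice.

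Apod (chr16:31296192-31314808, minus strand) encodes apolipoprotein D, a lipocalin made by glia, fibroblasts and Schwann cells. It was at 545, 629, 647 and 564 CPM in untreated WT mice of 155 days, and at 1302, 1602, 3938 and 846 CPM in untreated G93A mice. The groups did not overlap, but replicate 11 was more than 2-fold above any other G93A mouse of the group. This gave a log2 fold change of 1.70 (SE 0.30, adjusted p 0.000197, edgeR), and without replicate 11 it fell to 1.08, the lowest value when any 1 mouse was left out. Treated G93A mice had 2011, 1579, 1964 and 1337 CPM against 501 to 582 CPM in treated WT mice, a log2 fold change of 1.73 (SE 0.30). At 155 days the summed Schwann cell markers were 57.0 to 81.1 CPM in untreated G93A and 45.5 to 65.7 CPM in untreated WT mice, and the summed fibroblast markers 93.4 to 122 and 77.6 to 87.7 CPM.

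Abca1 (chr4:53030787-53159895, minus strand), whose transporter starts the loading of apolipoprotein E, changed more than the other efflux transporter of the set. Its levels were 30.0, 22.5, 27.5 and 21.6 CPM in untreated WT and 88.9, 117, 125 and 77.6 CPM in untreated G93A mice of 155 days. With OKN-007 they were 26.6, 23.9, 23.3 and 25.8 CPM in WT and 129, 120, 146 and 99.8 CPM in G93A mice. Every G93A mouse was above every WT mouse under both treatments. The log2 fold change was 2.02 (SE 0.15, adjusted p 3.33e-09, edgeR) without and 2.35 (SE 0.15, adjusted p 4.15e-10, edgeR) with treatment.

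Abcg1 (chr17:31057675-31117988), which passes cholesterol on to particles that already hold lipid, rose far less. Untreated WT mice of 155 days had 55.0, 50.7, 58.6 and 70.5 CPM and untreated G93A mice 68.3, 78.6, 78.8 and 63.5 CPM. Here the untreated groups overlapped, since WT replicate 4 was above 2 of the G93A mice. The fitted log2 fold change was 0.31 (SE 0.093, adjusted p 0.0116, edgeR), a 1.24-fold difference. Treated mice did not overlap, at 67.2 to 80.7 CPM in G93A and 54.0 to 58.7 CPM in WT mice, with a log2 fold change of 0.41 (SE 0.093, adjusted p 0.00166, edgeR).

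Nr1h3 (chr2:91184061-91202834, minus strand), the gene of LXRα, also changed little. It was at 5.10, 5.42, 4.35 and 5.38 CPM in untreated WT and 7.54, 7.48, 6.89 and 5.88 CPM in untreated G93A mice of 155 days. No G93A mouse reached down to the WT range. In the fit, the log2 fold change came to 0.47 (SE 0.12, adjusted p 0.00489, edgeR) and in treated mice 0.50 (SE 0.12, adjusted p 0.00261, edgeR). With the caudal Hox score in the fit the untreated change kept its size, 0.46, but was no longer called (adjusted p 0.0633, edgeR).

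Ch25h (chr19:34473778-34475164, minus strand) encodes cholesterol 25-hydroxylase, which makes 25-hydroxycholesterol. It was close to the limit of detection in WT mice, with 0.112, 0.174, 0.115 and 0.197 CPM in the untreated mice of 155 days, 16 counts in all. In untreated G93A mice it was at 7.85, 12.8, 6.85 and 6.90 CPM, 887 counts in all. The ratio of the groups was 56.7, with a counting interval (95%) from 34.7 to 99.6. In treated mice 1107 counts in G93A stood against 30 in WT, a ratio of 36.4 with a counting interval from 25.4 to 54.2. The fitted log2 fold changes were 5.81 (SE 0.40, adjusted p 1.69e-09, edgeR) and 5.18 (SE 0.36, adjusted p 1.65e-09, edgeR), the widest errors among the 10 genes in each comparison.

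Plin2 (chr4:86648386-86670060, minus strand) codes for the coat protein of lipid droplets. Its level was 12.6, 12.8, 10.4 and 11.2 CPM in untreated WT and 47.5, 57.5, 48.2 and 38.3 CPM in untreated G93A mice of 155 days. Treated G93A mice had 57.3, 47.4, 48.2 and 41.1 CPM and treated WT mice 9.29 to 12.1 CPM. The G93A mice formed one range under both treatments, far above all WT mice. This gave a log2 fold change of 2.04 (SE 0.13, adjusted p 4.54e-10, edgeR) and 2.19 (SE 0.13, adjusted p 1.52e-10, edgeR), respectively.

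Soat1 (chr1:156424525-156474331, minus strand), the gene of the enzyme that esterifies cholesterol, was 43.6, 32.5, 41.3 and 37.0 CPM in untreated WT and 67.0, 74.5, 73.9 and 60.9 CPM in untreated G93A mice of 155 days. There was no overlap, and the standard deviation was 12.7% of the mean in the WT and 9.32% in the G93A mice. The log2 fold change was 0.85 (SE 0.087, adjusted p 2.85e-07, edgeR), a 1.81-fold difference. Treated mice gave 0.86 (SE 0.086), with 69.2 to 74.4 CPM in G93A and 38.9 to 43.8 CPM in WT mice.

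**Figure D3:**
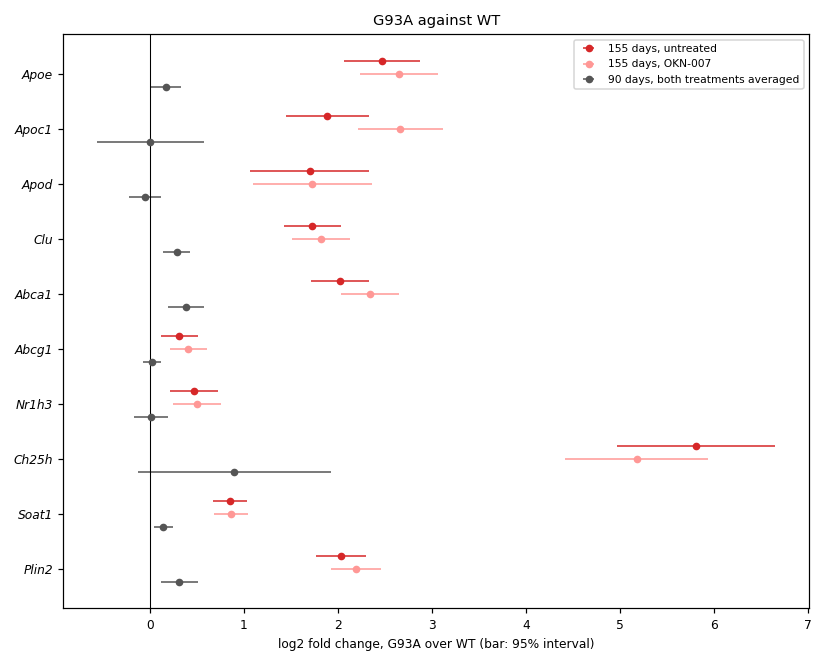
Log2 fold change of each gene, G93A over WT, at 155 days without and with OKN-007 and at 90 days with both treatments averaged; points are edgeR estimates and bars 95% intervals. At 155 days every interval lies above 0, the lowest bound being 0.12 for Abcg1 in untreated mice, and at 90 days the estimates lie between -0.056 and 0.90.

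The order of the levels was compared per length, as CPM per kilobase of exon. In untreated WT mice of 155 days Apoe led with 1476, followed by Apod with 231 and Clu with 163 CPM per kilobase, and these did not overlap one another or the rest. Abcg1 came next with 8.04, then Soat1, Plin2, Apoc1, Abca1 and Nr1h3 between 3.94 and 2.01, each of which overlapped the gene after it up to Nr1h3, and Ch25h was last with 0.108 CPM per kilobase. In untreated G93A mice Apoe had 8091 CPM per kilobase, Apod 746 and Clu 534, the last 2 overlapping. Behind them Plin2 (13.6), Apoc1 (10.3), Abcg1 (9.91), Abca1 (9.86) and Soat1 (7.06) each overlapped the gene after it, then came Ch25h (6.20), and Nr1h3 was last with 2.76 CPM per kilobase, below Ch25h without overlap. Going by means, Plin2 moved from place 6 to 4, Apoc1 from 7 to 5 and Abca1 from 8 to 7. Abcg1 fell from place 4 to 6 and Soat1 from 5 to 8. In G93A mice these genes overlapped their neighbours, so their places there are not distinct. Ch25h and Nr1h3 changed places, without overlap in either group.

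Within the untreated G93A mice of 155 days the genes tended to be high or low in the same animals. Replicate 11 was the highest mouse for 6 genes (Apoe, Apoc1, Apod, Clu, Abca1 and Abcg1) and replicate 12 the lowest for 8, all but Apoc1 and Ch25h. The summed microglia markers of replicates 9 to 12 were 1671, 2301, 2551 and 1434 CPM, the same order as that of Apoe, and the summed astrocyte markers were 13747, 17273, 17274 and 13753 CPM. Replicate 12 was also the mouse with liver RNA. Among the treated G93A mice, replicate 16 was lowest for 9 genes, all but Nr1h3, and had the lowest summed microglia markers of its group, 1762 against 1927 to 2163 CPM. Ch25h did not follow Apoe: it was highest in replicate 10 of the untreated and replicate 14 of the treated mice, Apoe in replicates 11 and 13. The share of all genes highest or lowest in these mice is not given here. The counts are therefore not shown to be particular to the 10 genes.

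**Figure D4:**
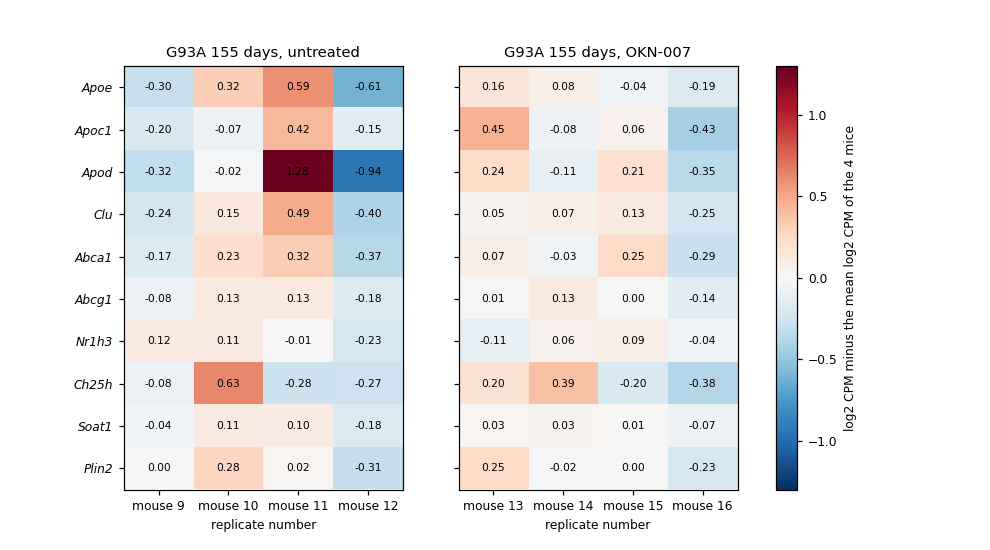
Deviation of each G93A mouse of 155 days from the mean log2 CPM of its group of 4, for each gene (rows, colour and printed value in log2 units), untreated on the left and OKN-007 on the right; columns are mice by replicate number. The cells of replicate 12 (8 lowest values of 10) and of replicate 16 (9 of 10) are blue for all genes, and the darkest red is Apod in replicate 11.

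Over all 32 mice, the genes with the pattern most like each of the 10 were found among 19829 genes by the root-mean-square distance of centred log2 CPM. Among the 3 nearest genes of Apoe were B2m (distance 0.176) and the protease gene Ctsl (0.185), and Clu was closest to the lysosomal genes Ctsb (0.0981) and Hexa and to Prdx6. Abca1 was closest to the kinase gene Lyn (0.181), then to Thbs2 and Hbegf, Plin2 to Tmem176b (0.150), Renbp and Unc93b1, and Soat1 to Ndst1 (0.107), Add3 and Lrig1. Ch25h was closest to Ly9 (0.333), Apobec1 and Plau, Apoc1 to Apobec3 (0.314), Gm26740 and Pdlim4, and Apod to Ucma (0.252), Fstl3 and Cpxm2. Abcg1 (Pbdc1 at 0.0877, Rpn2 and Hmgb1) and Nr1h3 (Tssc4 at 0.149, Lrrc42 and Atf4) varied so little, by 0.156 and 0.223 on the same scale, that nearness says little for them. Between members the nearest pairs were Abcg1 and Nr1h3 (0.175), Clu and Plin2 (0.195) and Apoe and Plin2 (0.277). The mice of a group share genotype, time and library scaling, so these distances describe the 8 groups more than single mice.

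Genes of neighbouring steps of the pathway were called in both directions in untreated mice at 155 days, as 21.3% of all genes were called higher and 18.2% lower. Of 15 receptors and related genes, 7 were higher and 1 lower in G93A mice, led by the scavenger receptors Msr1 (log2 fold change 4.25, SE 0.35) and Olr1 (3.67, SE 0.60). Mylip, a ubiquitin ligase gene and LXR target, was higher by 1.46 (SE 0.13), and Trem2, a lipid receptor of microglia, by 3.53 (SE 0.21). Of 14 partners of LXR and genes that remodel lipoproteins, 3 were higher and 2 lower, close to the shares of all genes. Lpl, which splits triglycerides, was higher by 4.70 (SE 0.21) and Lcat, which esterifies cholesterol in particles, by 0.87 (SE 0.14), whereas Abcg4, a relative of Abcg1, fell by 0.50 (SE 0.095) and Abca5 by 0.49 (SE 0.13). The gene of the other LXR, Nr1h2, had a log2 fold change of -0.092 (SE 0.076, adjusted p 0.357, edgeR).

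Of 12 genes for the exit of cholesterol from lysosomes and for its esters, 4 were higher and 3 lower, and these small counts, like those of the 2 lists that follow, are to be read against 21.3% higher and 18.2% lower over all genes. Npc2, which carries cholesterol out of lysosomes, was higher by 1.17 (SE 0.11) and Soat2, the relative of Soat1, by 2.84 (SE 0.76) at levels of at most 1.12 CPM in the untreated G93A mice. Stard4, a sterol carrier whose gene is switched on when cells lack cholesterol, fell by 1.11 (SE 0.14), and Osbpl1a by 0.39 (SE 0.080). Insig1, which holds back cholesterol synthesis and is itself a gene switched on by low sterol, fell by 1.19 on the log2 scale (SE 0.12), from 145 to 63.1 CPM. It belongs to a list of 9 genes of oxysterol metabolism, 8 tested, of which 3 were higher and 2 lower. The others named by the rule were Gpr183, the receptor for oxysterols made from 25-hydroxycholesterol (2.79, SE 0.22), Hsd3b7 (1.25, SE 0.24), which ends their signal, and Cyp46a1, the neuronal 24-hydroxylase, which fell by 0.30 (SE 0.080). Of 14 other lipid droplet genes, 12 were tested and 2 were higher, Pnpla2, a triglyceride lipase (0.76, SE 0.27, with a highest mouse of 123 CPM against a group mean of 62.4 CPM), and Mgll (0.25, SE 0.087).

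Of 12 other apolipoprotein genes, 5 were tested and 2 were higher, Apoc4 (above) and Apoh (log2 fold change 2.26, SE 0.60). Apoh is a liver gene. In untreated G93A mice Apoa1 and Apoa2 were at most 11.6 and 9.68 CPM, and the summed liver markers ranged from 1.52 to 190 CPM, and their part in the result of Apoh was not tested. Of the remaining lists in the same comparison, with the same shares over all genes (21.3% and 18.2%), fibroblast markers were called higher for 3 of 6 and Schwann cell markers for 1 of 4 tested, endothelial (5) and liver markers (5 tested) for 0, and caudal Hox genes were lower for 5 of 9. Treated mice, with 23.3% of all genes called higher and 18.2% lower, gave the same counts in both directions for the receptors (7 higher, 1 lower) and the oxysterol genes (3 and 2), and differed for the LXR partners (3 and 3), lysosomal genes (5 and 3), lipid droplet genes (1 and 0) and other apolipoprotein genes (2 and 0, Apoh not being one of them, adjusted p 0.118 by edgeR).

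At 90 days no call was made for any of the 10 genes by the same test. With both treatments averaged, 8 G93A against 8 WT mice, 0 of the 10 and 5 of 18899 genes (0.0265%) had an adjusted p under 0.05. DESeq2 and edgeR's likelihood ratio test called 2 of the 10, Clu and Abca1. The share of 0.0265% belongs to the quasi-likelihood test and is no background for that count. Shares of all genes called by the other 2 tests are not given here. At an unadjusted p under 0.05, 5 of the 10 were higher in G93A mice, against 3.74% of all genes higher and 6.61% in either direction. These were Clu (log2 fold change 0.29, SE 0.068, adjusted p 0.198), Abca1 (0.38, SE 0.091, adjusted p 0.199), Plin2 (0.31, SE 0.095, adjusted p 0.415), Soat1 (0.14, SE 0.049, adjusted p 0.551) and Apoe (0.18, SE 0.076, adjusted p 0.682), all by edgeR's quasi-likelihood test. In untreated mice alone 4 of the 10 (background 5.96%, 3.17% higher) and in treated mice alone 3 (background 3.95%, 2.19% higher) had an unadjusted p under 0.05, each of them higher in G93A mice.

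Abca1 at 90 days was 17.4, 24.43, 20.4 and 18.2 CPM in untreated and 22.1, 22.5, 19.0 and 22.7 CPM in treated WT mice. In G93A mice it was 27.8, 24.45, 29.4 and 24.35 CPM without and 21.1, 25.4, 33.0 and 31.0 CPM with OKN-007. In both cases the groups overlapped because 1 G93A mouse, the lowest, lay below the highest WT mouse. Clu was 496 to 634 CPM in all 8 WT and 585 to 819 CPM in all 8 G93A mice, and overlapped in untreated but not in treated mice (510.7 to 570.4 against 634.5 to 673.8 CPM; 1.56% of all genes were higher without overlap there). Apoe was 3263 to 3980 CPM in the WT and 3400 to 4798 CPM in the G93A mice. The summed microglia markers of the same mice were 394 to 481 CPM in WT and 397 to 614 CPM in G93A mice, with a median log2 fold change of 0.25 over the 10 markers and none of them called. The summed astrocyte markers were 6130 to 8323 CPM in WT and 6458 to 8787 CPM in G93A mice, 1.14 times as high on average without and 1.17 times with OKN-007, with a median log2 fold change of 0.13 over the 8 markers. None of the 8 was called, Gfap having the largest log2 fold change among them (0.30, SE 0.096, unadjusted p 0.00643, edgeR). The part of both marker sets in these differences was not tested. Left out together, the 2 mice with Schwann cell RNA did not alter the count of 0, and the log2 fold changes of Abca1 and Clu were then 0.40 and 0.25.

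Ch25h was low in all mice of 90 days and in part of them near the limit of detection, with 39 counts over the untreated and 12 over the treated WT mice and 33 and 54 over the G93A mice. Its highest levels were 1.01 and 0.627 CPM, in treated G93A replicates 16 and 15 (30 and 17 counts), above the limit. The log2 fold change with both treatments averaged was 0.90 (SE 0.49, adjusted p 0.793, edgeR), a wide error. This average joins unlike values, -0.10 (SE 0.65) in untreated mice alone and 1.90 (SE 0.72) in treated mice alone. The treated value rests on the 12 counts of the treated WT mice, and neither was called. The remaining 4 genes showed no difference beyond their errors, with log2 fold changes of 0.0055 (SE 0.27) for Apoc1, -0.056 (SE 0.081) for Apod, 0.025 (SE 0.045) for Abcg1 and 0.0095 (SE 0.087) for Nr1h3. Apod was highest among untreated WT mice in replicate 3, at 1065 CPM, the mouse with Schwann cell RNA.

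The difference between the times was tested in a fit of all 32 mice. The untreated G93A change was larger at 155 than at 90 days for 8 of the 10 genes (12.9% of 19829 genes), by between 0.68 on the log2 scale for Soat1 (SE 0.11) and 5.92 for Ch25h (SE 0.81). It was not called for Abcg1 (0.26, SE 0.11, adjusted p 0.112) or Nr1h3 (0.29, SE 0.16, adjusted p 0.221, both by edgeR). In treated mice the change was larger at 155 days for all 10 (13% of genes), the smallest being 0.37 for Abcg1 (SE 0.11, adjusted p 0.0187, edgeR). The 2 times are different mice, and the labels do not say whether their libraries were made together. Summed oligodendrocyte markers were 28651 to 52697 CPM over the 4 groups of 90 days and 19907 to 24967 CPM over those of 155 days, in both genotypes.

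Within untreated WT mice, Nr1h3 was the single gene of the 10 called between the times, lower by 0.43 on the log2 scale at 155 days (SE 0.12, adjusted p 0.00733, edgeR), against 24.9% of all genes called in either direction. Its levels were 6.81, 5.85, 7.55 and 7.08 CPM at 90 days and 5.10, 5.42, 4.35 and 5.38 CPM at 155 days, with no overlap (18.9% of all genes in either direction). In untreated G93A mice Nr1h3 was level, at 7.19, 8.78, 8.04 and 6.74 CPM and then 7.54, 7.48, 6.89 and 5.88 CPM (log2 difference -0.14, SE 0.11). Apod in untreated WT mice was 778 to 1065 CPM at 90 and 545 to 647 CPM at 155 days, with no overlap and a log2 difference of -0.59 (SE 0.24, adjusted p 0.0739, edgeR). In untreated G93A mice 8 of the 10 genes were higher at 155 days (21% of all genes were called higher), all but Abcg1 and Nr1h3.

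OKN-007 against untreated gave 0 calls for the 10 genes and 0 over all genes, in G93A and in WT mice and at both times, by edgeR's quasi-likelihood test. In G93A mice of 155 days 0 of the 10 and 4.04% of all genes had an unadjusted p under 0.05. In the other comparisons of treatment the shares were 2.94% in WT mice of 155 days and 5.56% and 4.07% in G93A and WT mice of 90 days, and DESeq2 also called 0 of the 10 genes in each. In G93A mice of 155 days the estimates ran from -0.15 for Apod to 0.29 for Apoc1 on the log2 scale. The intervals of the ratio of treated to untreated mice were 0.848 to 1.45 for Apoe, 0.792 to 1.197 for Clu, 0.994 to 1.49 for Abca1, 0.903 to 1.18 for Abcg1, 0.938 to 1.201 for Soat1 and 0.861 to 1.21 for Plin2. For Apoc1, Nr1h3 and Ch25h they were 0.928 to 1.62, 0.902 to 1.28 and 0.806 to 1.67. The widest was that of Apod, from 0.590 to 1.38. All 10 genes overlapped between treated and untreated G93A mice of 155 days (3.06% of all genes did not).

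In G93A mice of 90 days, Nr1h3 was the 1 gene of the 10 with an unadjusted p under 0.05 (background 5.56%). It was 7.19, 8.78, 8.04 and 6.74 CPM in untreated and 5.73, 6.65, 6.27 and 5.23 CPM in treated mice. No treated mouse reached the untreated range, which was so in either direction for 2.88% of all genes. The fitted log2 fold change was -0.36 (SE 0.12, unadjusted p 0.00862, adjusted p 0.837, edgeR), and the difference did not pass the adjustment. In WT mice of the same time it was -0.043 (SE 0.12), and the interaction of genotype and treatment was -0.32 (SE 0.17, unadjusted p 0.0837, edgeR). At 155 days the estimate in G93A mice was 0.10 (SE 0.12).

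No interaction of genotype and treatment was called at either time, for the 10 genes or any other, by edgeR or, for the 10, by DESeq2. At 90 days 0 of the 10 had an unadjusted p under 0.05 (background 2.81%). At 155 days Apoc1 had the single unadjusted p under 0.05 among the 10 genes (background 2.34%), with an interaction of 0.78 on the log2 scale (SE 0.30, unadjusted p 0.0184, adjusted p 0.9998, edgeR). It was made of a lower estimate in WT mice, -0.49 (SE 0.23), and a higher one in G93A mice, 0.29 (SE 0.19), neither of which was called, with 163 to 1045 counts per group behind them. In WT mice of 155 days the other estimates of treated over untreated lay between -0.17 for Apod and 0.85 for Ch25h, the latter on 30 against 16 counts.

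**Figure D5:**
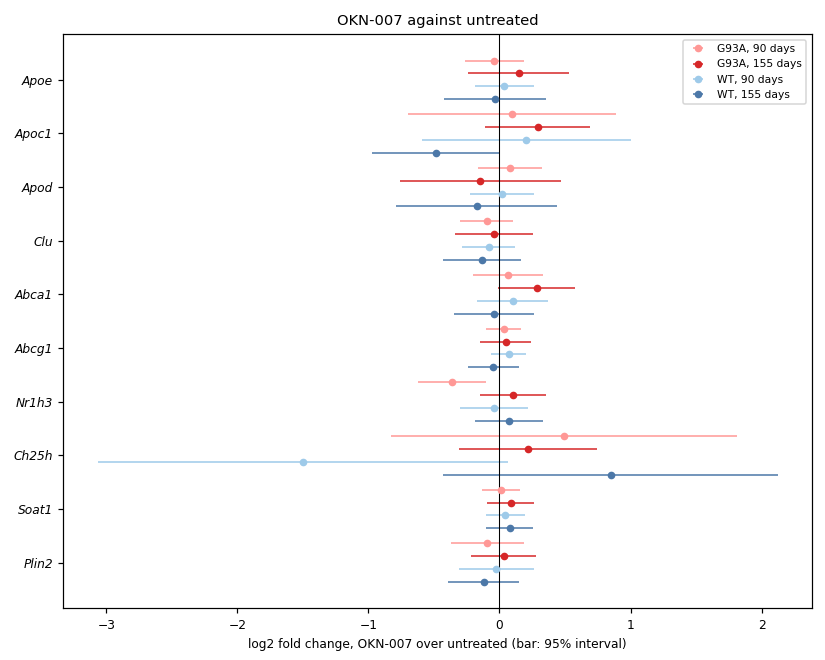
Log2 fold change of each gene, OKN-007 over untreated, in G93A and WT mice at 90 and 155 days; points are edgeR estimates and bars 95% intervals. The interval of Nr1h3 in G93A mice of 90 days (-0.62 to -0.10) is the only one of the 40 that leaves out 0, and those of Ch25h are widest where it was near the limit of detection.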

How the data were processed

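Spinal cord RNA of 32 mice was sequenced (stranded mRNA libraries), and the authors deposited raw counts per gene, without normalization. The study's methods name Trimmomatic, STAR and HTSeq with a GENCODE annotation on GRCm38, while the submitters' processing notes name FastQC, STAR, featureCounts, edgeR and the builds hg38, GRCm39 and mm39, so the counter and build cannot be settled here, nor whether counting used the strand. Symbols, positions and exon lengths came from GENCODE M21 (GRCm38), which matched 41218 of 42524 genes (96.9%).

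Counts were analysed with edgeR 4.0.16 in R 4.3.3 (filterByExpr, TMM, glmQLFit, glmQLFTest, no covariates), 16 mice per time or all 32 across times. Standard errors are the log2 fold change over the root of F, intervals of fold changes are 95% intervals from them, and those of the Ch25h ratio are exact intervals for counting. The labels name no batch, and p-values measure the spread between mice. The closest pair of libraries in a group differed by a chi-square of 3.81 per gene. The procedure was tested on simulated data.

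The 10 genes and all lists were chosen with earlier results of these data known. Named besides the 10 are, per list, the 2 largest rises and the 2 largest falls among called genes and the 3 genes nearest to each of the 10 in pattern. Mylip, Trem2, Nr1h2, Apoa1, Apoa2, Gfap and the neighbours of Apoe were named after their values were seen. Alternatives were the likelihood ratio test of edgeR, DESeq2 1.42.0, other filters, thresholds, samples and covariates, a replicate block and leaving out each mouse; leaving out mice with liver or Schwann cell RNA was added after the data were seen. The human transgene was not analysed here. Single genes that these rules would name are in part not reported here.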

Additional observations from a re-analysis of the deposited data

Results flagged for a closer look

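In 6 of 80 sets of 4 mice (8 groups of each of 10 genes) 1 mouse lay far from the other 3, and chance gives about 1 in 20, or 4. In untreated G93A mice of 155 days these were Apoc1 in replicate 11, at 10.05 CPM with the next mouse at 7.15, and Ch25h in replicate 10, at 12.8 CPM with the next at 7.85. In WT mice of 155 days they were Clu in untreated replicate 2, at 665 CPM with the next at 534, and Abcg1 in treated replicate 7, at 54.0 CPM with the next at 58.3. In treated WT mice of 90 days replicate 7 was far below the others for Abca1, at 19.0 CPM with the next at 22.1, and for Soat1, at 31.5 CPM with the next at 36.0.

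The difference between G93A and WT mice was larger at 155 than at 90 days by the test of that difference in edgeR. In untreated mice the log2 differences were 2.24 for Apoe, 1.81 for Apoc1, 1.78 for Apod, 1.42 for Clu, 1.61 for Abca1, 5.92 for Ch25h, 0.68 for Soat1 and 1.68 for Plin2, with the highest adjusted p at 0.00379. In treated mice they were 2.48 for Apoe, 2.69 for Apoc1, 1.72 for Apod, 1.51 for Clu, 1.95 for Abca1, 0.37 for Abcg1, 0.62 for Nr1h3, 3.23 for Ch25h, 0.70 for Soat1 and 1.88 for Plin2, with the highest adjusted p at 0.0187.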

How the results depend on the processing

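At 155 days all 10 genes were called in G93A against WT mice, untreated and treated, whichever single mouse was left out. With no mouse left out, 21.3% and 23.3% of all genes were called higher. With both treatments averaged at 90 days, 0 genes were called by edgeR's quasi-likelihood test, 2 by DESeq2 and 2 by the likelihood ratio test (Clu and Abca1), 1 without the low-count filter (Abca1) and 0 to 1 when single mice were left out (Clu, without untreated G93A replicate 12). The cause of these differences was not tested, and the shares of all genes called in these other settings are not given here. In the same comparison Apoc1 and Nr1h3, near 0, changed sign: Apoc1 to -0.011 without the filter, to -0.16 without the mice with Schwann cell RNA and over -0.13 to 0.21 when single mice were left out, and Nr1h3 to -0.0024, to -0.00073 and over -0.029 to 0.043.

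Between the times in untreated WT mice, 1 of the 10 genes was called in the main fit, where 24.9% of all genes were called. The count was 4 at an adjusted p under 0.10 and 2 with the Hox score. It was 2 with only the compared groups and 1 to 2 when single mice were left out. Shares of all genes called in these other settings are not given here, so the counts have no background of their own. With the replicate number as a block 2 were called, but the numbers are shared only between the times, which are different mice, and same-numbered mice did not deviate together (correlations from -0.215 to 0.134), so the block is no pairing. The block left the other counts between the times at 8, 10 and 8. Shares of all genes were 12.9%, 13% and 21% in the main fit and are not given with the block. In treated mice the larger G93A change at 155 days was not called for Abcg1 without the filter (0.32, adjusted p 0.101), without G93A replicate 16 of 90 days (adjusted p 0.0508) or without G93A replicate 14 of 155 days (adjusted p 0.0558), nor for Ch25h without WT replicate 8 of 90 days (3.02, adjusted p 0.0561). In untreated mice it was called for Abcg1 without WT replicate 4 of 155 days (0.36, adjusted p 0.0154), all by edgeR. Ch25h in WT mice, at 16 to 39 counts per untreated group, is limited by depth.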
